A study of Mus musculus with 8 samples.

Results

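The distal intergenic peaks of anti-NONO RNA immunoprecipitation from mouse liver nuclei are the peaks that overlap no annotated gene body and lie far from every protein-coding gene. A peak was a member when it overlapped no gene body of any biotype in GENCODE M21 on the mm10 genome and its midpoint lay more than 10 kb from every protein-coding gene body. Of 206501 peaks in 4 lists, 2783 met the rule. The rule used position only, so the tags, widths and spacing given here were not used to choose the peaks. NONO binds RNA in the nucleus and is known from paraspeckles, bodies assembled around a long non-coding RNA, and RNA immunoprecipitation sequences the RNA that an antibody pulls from a lysate. The livers came from wild-type C57BL/6 mice aged 14 weeks on a light cycle of 12 h light and 12 h dark, with food given only in the dark. The fasted livers were from zeitgeber time 10, those of the 2 h re-fed mice from zeitgeber time 14 and those of the 10 h re-fed mice from zeitgeber time 22. Feeding state and time of day therefore cannot be told apart. A 4th immunoprecipitate used IgG, an antibody preparation without the NONO target, and the labels give no feeding state or time for it. Each immunoprecipitate had its own input library, and each of the 8 libraries was a pool of 2 experiments. With 1 library per condition there was no replicate error and no test between conditions. The 95% intervals are exact and cover counting error only, and neighbouring peaks are not independent of each other.

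Nuclear RNA from outside annotated genes includes transcripts of enhancers, RNA made past the end of a gene before the polymerase stops, and long non-coding RNAs that an annotation does not hold. A peak list alone does not separate these. Each peak is listed on 1 strand by the authors' settings, so the strand of the RNA was not known.

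No mm10 genome sequence was used here, so the sequence under most distal peaks is not shown. RefSeq, another gene catalogue, places gene starts under some of them, and its promoter table for GRCm38.p6 (the same coordinates as mm10) holds 300 bases around each start. Distal peaks overlapped 46 such windows of 40 genes, and peaks of NONO lists overlapped 32 of the 46. The windows shown are the 4 that peaks of at least 2 NONO times overlapped and that no distal IgG peak overlapped. All 4 belong to RefSeq long non-coding genes with predicted-gene names. Capitals mark the bases that lie under the peak of every NONO time that had one, and each sequence reads 5′ to 3′ on the gene's strand.
Gm32164: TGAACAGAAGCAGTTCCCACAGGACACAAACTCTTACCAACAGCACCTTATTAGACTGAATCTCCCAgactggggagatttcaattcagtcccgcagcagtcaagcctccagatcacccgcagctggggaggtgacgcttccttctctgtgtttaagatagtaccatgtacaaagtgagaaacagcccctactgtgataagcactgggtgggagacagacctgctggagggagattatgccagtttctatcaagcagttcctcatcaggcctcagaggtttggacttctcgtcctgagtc
Gm35424: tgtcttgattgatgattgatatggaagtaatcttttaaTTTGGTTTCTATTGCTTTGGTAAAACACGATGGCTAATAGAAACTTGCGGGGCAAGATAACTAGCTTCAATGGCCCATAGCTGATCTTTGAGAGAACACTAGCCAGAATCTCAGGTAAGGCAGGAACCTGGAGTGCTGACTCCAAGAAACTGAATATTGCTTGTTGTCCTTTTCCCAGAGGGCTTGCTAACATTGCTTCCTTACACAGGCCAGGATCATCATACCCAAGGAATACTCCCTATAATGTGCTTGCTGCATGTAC
Gm41027: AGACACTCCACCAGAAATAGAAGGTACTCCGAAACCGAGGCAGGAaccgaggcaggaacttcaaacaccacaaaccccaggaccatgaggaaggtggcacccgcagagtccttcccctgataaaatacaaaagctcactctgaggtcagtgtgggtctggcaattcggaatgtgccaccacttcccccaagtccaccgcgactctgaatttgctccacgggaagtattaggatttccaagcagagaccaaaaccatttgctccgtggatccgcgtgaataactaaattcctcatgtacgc
Gm41353: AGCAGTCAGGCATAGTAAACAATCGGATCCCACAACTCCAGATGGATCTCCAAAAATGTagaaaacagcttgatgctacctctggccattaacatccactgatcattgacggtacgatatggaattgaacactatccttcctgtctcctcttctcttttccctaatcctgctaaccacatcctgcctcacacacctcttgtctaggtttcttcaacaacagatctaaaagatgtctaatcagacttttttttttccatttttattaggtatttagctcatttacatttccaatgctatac

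The Gm32164 window lies at chr7:90060413-90060712 on the minus strand and was the only one of the 4 under a peak at all 3 NONO times. Those peaks held 25.7 (fasted), 27.0 (2 h) and 19.7 (10 h) normalised tags, that is tags per 10000000 tags of the library, and shared the 67 bases in capitals. The Gm35424 window (chr8:63777427-63777726, minus strand) lay under a fasted peak of 14.7 and a 10 h peak of 20.8 normalised tags, which shared 262 bases of it. In both windows the peaks of different times differed by less than 2-fold. The Gm41027 window (chr13:96983757-96984056, minus strand) lay under a 2 h peak of 143.2 and a 10 h peak of 79.9 normalised tags, with 45 bases in both. The Gm41353 window (chr15:77375843-77376142, plus strand) lay under a 2 h peak of 7.59 and a 10 h peak of 39.9 normalised tags, with 59 bases in both. Neither window had a distal fasted peak, although the Gm41353 gene had 1 of 21.4 tags outside its window. The absence of IgG also held for the windows only. Elsewhere each gene had 1 distal IgG peak, of 18.4 (Gm32164), 14.2 (Gm35424), 16.3 (Gm41027) and 28.4 (Gm41353) tags. Short motifs were searched on both strands of the windows. The motif AGGGA stood in 60.9% of the 46 windows and in 63.3% of all 32817 windows of the table. The longer GAGAGGAA was in 4.35% of the 46 windows against 3.25% of all. The hexamer AATAAA was in 23.9% against 19.6%, and the repeat TGTGTGTG was in 10.9% (5 windows) against 4.09%. Median GC content was 47.7% in the 46 windows and 52.7% in all windows. A match is a description of these letters and not a binding site.

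One RefSeq microRNA, Gm51276, also lay under distal peaks, at chr4:150797898-150797952 on the minus strand. It sits in a locus upstream of Errfi1 described with the strongest loci. The hairpin and the mature strand mmu-miR-12196-3p are shown because it is the only microRNA of the table under a distal peak, with the seed (bases 2 to 8 of the mature strand) in capitals.
Gm51276 hairpin: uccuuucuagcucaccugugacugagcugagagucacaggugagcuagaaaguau
mmu-miR-12196-3p: uCACAGGUgagcuagaaaguau

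A fasted peak of 31.9 normalised tags and an IgG peak of 73.7 normalised tags covered it, and no 2 h or 10 h distal peak did. A 2 h peak of 156.0 and a 10 h peak of 83.2 normalised tags overlapped the same fasted peak. They began past the microRNA, at chr4:150798282 and chr4:150798275. These peaks count RNA of the whole window and do not measure the mature microRNA.

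The libraries held between 18275033 and 21091048 tags. The authors' peak caller required at least 11 tags in the NONO libraries and 8 tags in the IgG library, and 2-fold over input, so a list without a peak at a place had no window past those limits there, which is not the same as no RNA. One IgG peak over Rn7sk, the gene of an abundant nuclear RNA, took 37.48% of the IgG library, so IgG values are also given per tag outside it where this matters. Of 10 hepatocyte markers, 3 (fasted), 4 (2 h), 6 (10 h) and 6 (IgG) had a peak, and no list had a peak over any of 5 cholangiocyte markers. Markers of Kupffer cells, endothelium and stellate cells, with 5 genes each, had a peak for 2 to 4 genes per list. A peak here shows RNA in the immunoprecipitate over input and is not a measure of expression, and the part of other cell types in the distal peaks was not tested.

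Distal peaks were a small part of every list, and the list of 2 h re-fed liver, though the longest, did not hold the most. The fasted list had 507 distal peaks of 38209 (1.33%, 95% interval 1.22 to 1.45%). The 2 h list had 728 of 61737 (1.18%, 1.10 to 1.27%), and the 10 h list also had 728, of 50609 (1.44%, 1.34 to 1.55%). The IgG list had 820 of 55946 (1.47%, 1.37 to 1.57%). As a share of the list the 2 h value was the lowest, with an interval below those of the 10 h and IgG lists, while the fasted interval overlapped the other 3. When each list was cut to its 38209 best-scoring peaks, the length of the fasted list, 507 (1.33%), 379 (0.992%), 500 (1.31%) and 606 (1.59%) distal peaks remained in the order fasted, 2 h, 10 h and IgG. The IgG list, which served as background, thus held more distal peaks than any NONO list on both counts.

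**Figure D1:**
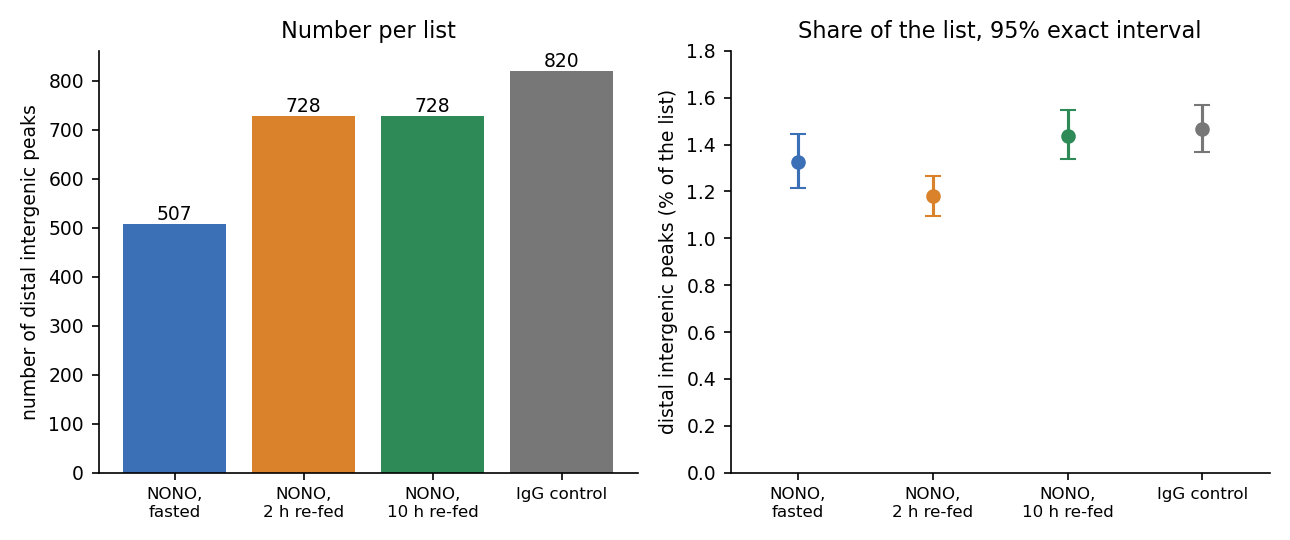
Left, number of distal intergenic peaks in each of the 4 lists. Right, the same as a percentage of all peaks of the list, with 95% exact intervals for counting error. The numbers run from 507 in the fasted to 820 in the IgG list, and the 2 h list has the lowest share, 1.18%.

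The territory where a peak could be distal was large. It covered 1217.1 Mb, or 45.74% of the 2661.1 Mb that genes span on the chromosomes, against 45.9% under gene bodies. Distal peaks numbered 0.417 (fasted), 0.598 (2 h), 0.598 (10 h) and 0.674 (IgG) per Mb of it, and gene-body peaks were 64.3 to 79.6 times as dense in the same lists. The distal peaks held 0.124% (fasted), 0.274% (2 h), 0.226% (10 h) and 0.359% (IgG) of the library's tags. Distal peaks and all peaks, most of which lie over genes, were spread differently over chromosomes. The part of each chromosome's distal territory in this was not tested. Chromosome 2 held 3.85 to 5.08% of the distal peaks against 7.97 to 8.43% of all peaks, and chromosome 16 held 1.51 to 2.20% against 4.09 to 4.29%. Chromosome 9 lay the other way, with 7.42 to 9.07% of distal peaks against 5.52 to 5.92% of all peaks. 1 locus beside Arhgap32, described with the strongest loci, held 15, 18, 14 and 15 of the 44, 54, 66 and 67 distal peaks there. Without it the shares were 5.89% (fasted), 5.07% (2 h), 7.28% (10 h) and 6.46% (IgG), and the 2 h share was then below the 5.52% of all 2 h peaks.

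In the NONO lists distal peaks held fewer tags than peaks over genes, and in the IgG list they held more. The median distal peak had 13.8 (fasted, interval 12.8 to 14.7), 13.05 (2 h, 11.9 to 14.2) and 15.9 (10 h, 14.8 to 17.5) normalised tags. Peaks over gene bodies had medians of 17.1, 17.1 and 18.1 in the same order. In the IgG list the distal median was 13.7 (12.6 to 15.3) against 11.1 over gene bodies. Over the full lists the 10 h median was the highest of the 4 distal medians, and its interval stood above that of the 2 h list. Per tag outside the Rn7sk peak the IgG distal median was 21.91, above all 3 NONO medians, which turns its place among the 4 lists from near the fasted value to the highest. In lists of equal length the distal medians were 13.8, 23.2, 21.05 and 17.9 against gene-body medians of 17.1, 26.1, 23.0 and 15.8. Each list kept its side of the gene-body median, but there the 2 h distal median was above the 10 h one. The cut to equal length left the fasted list whole and removed the most peaks from the 2 h list, the longest. Its part in the changed order was not tested. Among peaks of at least 4-fold over input the distal medians were 8.56, 7.59, 9.85 and 6.84 against 8.56, 8.06, 8.76 and 6.84 over gene bodies. The distal median was then lower only at 2 h, equal in the fasted and IgG lists and higher at 10 h. Intergenic peaks within 10 kb of a coding gene had medians of 13.8, 13.3, 15.3 and 11.6, so in the NONO lists the lower tags were shared by both intergenic classes.

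A few peaks held much of the tags. Distal peaks of at least 100 normalised tags numbered 12 (fasted), 54 (2 h), 41 (10 h) and 50 (IgG), and held 24.7%, 53.3%, 34.5% and 58.5% of the list's distal tags. Their median fold over input was only 2.12, 2.42, 2.33 and 2.31, against 3.25, 3.69, 3.25 and 3.71 in the weaker distal peaks. Strong distal peaks were thus those with many tags in the input too. The 5 with the most tags in each list were between 2.00-fold and 3.15-fold over input.

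Distal peaks were short. Their median width was 500 bp (fasted), 632 bp (2 h), 634 bp (10 h) and 629 bp (IgG), against 625, 737, 644 and 649 bp over gene bodies. Intergenic peaks within 10 kb of a coding gene had medians of 500, 635, 631 and 500 bp. In the NONO lists the short width was thus shared by both intergenic classes. A width of exactly 500 bp, the smallest that the caller's windows give, was listed for 53.06%, 44.37%, 43.54% and 45% of distal peaks. The fasted distal median interval (500 to 626 bp) lay below the 2 h (627 to 637 bp) and 10 h (628 to 645 bp) intervals and only touched the edge of the IgG interval (626 to 636 bp). Peaks over 2 kb numbered 9 (fasted), 52 (2 h), 28 (10 h) and 29 (IgG). The widest distal peak, 8220 bp, was in the 2 h list.

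**Figure D2:**
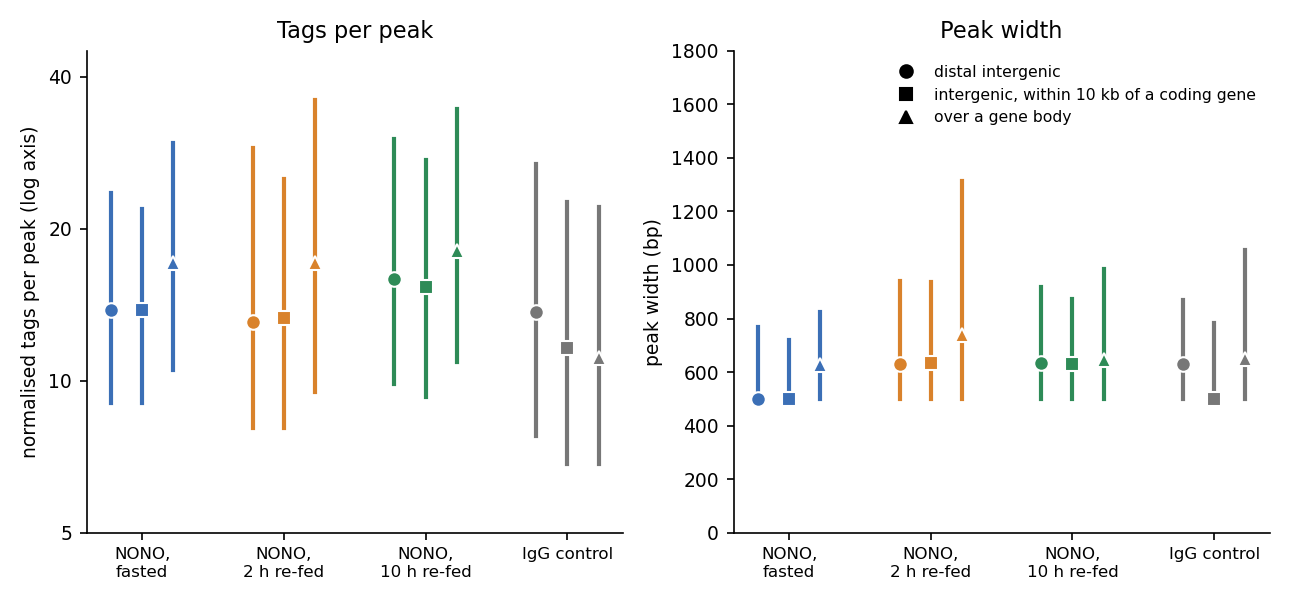
Normalised tags per peak (left, log axis) and peak width in bp (right) for distal peaks (circles), intergenic peaks within 10 kb of a coding gene (squares) and peaks over gene bodies (triangles). Symbols are medians and bars run from the 1st to the 3rd quartile over peaks of 1 library. The distal medians of 13.05 to 15.9 tags lie below the gene-body medians in the 3 NONO lists and above it in the IgG list.

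Fold over input was higher in distal peaks than in peaks over genes for NONO, and lower for IgG. At least 4-fold over input were 32.74% of fasted distal peaks, where 21% of all fasted peaks were. The 2 h share was 40.66% against 29.4% of all peaks, and the 10 h share 27.61% against 18.6%. In the IgG list it was 42.93% against 51.2%. The 3 NONO shares stood above the share of their list and the IgG share below it, each by more than its counting interval. Intergenic peaks within 10 kb of a coding gene had shares of 29.72%, 39.29%, 26.41% and 44.91%, each inside the interval of the distal share. The highest folds rested on almost no input. A 10 h peak of 26.3 normalised tags at chr4:68172069-68172569, 589 kb from Brinp1, was 62.45-fold over 0.8 input tags, and an IgG peak at chr17:50419894-50420394 near Plcl2 was 83.17-fold over 0.5 input tags. The 10 h peak was met by peaks of all 3 other lists. A peak at chr11:63630555-63632003, 255 kb from Hs3st3b1 (a sulfotransferase of heparan sulfate), was 45.18-fold over 1.0 input tag in the fasted list and 39.03-fold over 1.5 in the 10 h list, and no IgG peak met it.

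Distal peaks lay close together. Another distal peak of the same list lay within 10 kb for 50.3% of fasted (interval 45.9 to 54.7%), 54.26% of 2 h (50.6 to 57.9%), 52.47% of 10 h (48.8 to 56.2%) and 46.46% of IgG (43.0 to 49.95%) distal peaks. The IgG interval lay below that of the 2 h list and overlapped the others. Among peaks of at least 4-fold over input the shares were 16.27%, 30.74%, 14.43% and 32.39%, so there IgG was the highest and not the lowest. The same measure among intergenic peaks nearer to coding genes was 29.04%, 38.97%, 31.45% and 30.69%, and among gene-body peaks, which are far denser, 84.51% to 92.55%. The near class is confined to strips within 10 kb of coding genes, and the part of that in its lower share was not tested. The median distance to the nearest distal peak of the same list was 9.91 kb (fasted), 7.34 kb (2 h), 8.86 kb (10 h) and 16.6 kb (IgG).

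Joined within 10 kb, the peaks formed 349 (fasted), 470 (2 h), 483 (10 h) and 556 (IgG) groups, of which 252, 333, 346 and 439 were single peaks. Groups of at least 5 peaks numbered 4, 13, 12 and 14, and held 25, 88, 78 and 142 peaks. The largest groups had 10 (fasted), 18 (2 h), 14 (10 h) and 34 (IgG) peaks. The IgG list had the most single peaks and also the largest group. Grouped peaks had median tags of 14.7, 14.7, 15.9 and 16.3 against 12.8, 10.9, 15.3 and 12.1 in single peaks, and lower median folds (3.01, 3.24, 3.04 and 3.25 against 3.61, 3.81, 3.47 and 3.90).

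**Figure D3:**
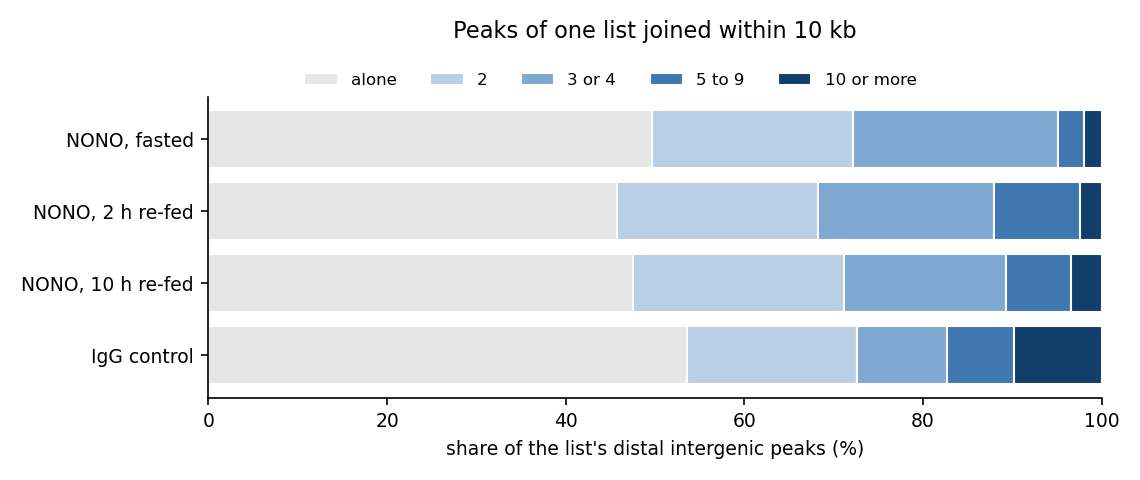
Share of each list's distal intergenic peaks (horizontal axis, percent) that stood alone or in groups of 2, 3 or 4, 5 to 9, and 10 or more peaks, when peaks of the list within 10 kb of each other were joined. Single peaks make up the largest piece in every list, and groups of 10 or more take the largest part in the IgG list, whose largest group has 34 peaks.

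Distal peaks recurred less between lists than peaks in general. Most peaks lie over gene bodies, where they were denser and wider, and the part of that in these shares was not tested. Peaks of another NONO time overlapped 49.7% of fasted distal peaks by at least 1 bp, against 63.5% of all fasted peaks. The 2 h share was 46.84% against 51.7%, and the 10 h share 47.25% against 61.5%. An IgG peak overlapped 22.88% of fasted distal peaks (interval 19.3 to 26.8%), against 33.7% of all fasted peaks. It was 33.79% against 39.3% at 2 h and 32.69% against 39.5% at 10 h. Intergenic peaks within 10 kb of a coding gene were met by IgG in 21.14%, 30.85% and 32.29% of cases and by another NONO time in 54.17%, 46.6% and 57.95%. The share met by IgG was thus close to the distal one in each list, while recurrence was lower in distal peaks in the fasted and 10 h lists and nearly equal at 2 h. Of the IgG list's own distal peaks 46.59% met a NONO peak of any time, against 61.5% of all IgG peaks. In no other list at all were 44.77% (fasted), 40.11% (2 h) and 41.35% (10 h) of distal peaks, against 29.6%, 34.49% and 28.34% of all peaks. The distal peaks met by IgG had more tags, with medians of 21.9, 29.85 and 26.0 against 12.4, 9.96 and 13.7 in those not met. Their median folds over input were lower, at 2.645, 2.92 and 2.91 against 3.34, 4.025 and 3.35. Of the 166, 296 and 201 distal NONO peaks of at least 4-fold over input, an IgG peak of at least 4-fold met 4.22%, 7.43% and 6.47%, against 10.3%, 14.1% and 12.6% of all NONO peaks of that fold.

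The genes next to distal peaks more often carried a peak themselves than coding genes in general. The nearest coding genes of fasted distal peaks were 297 genes, of which 58.92% had a peak over their own body in the fasted list, against 28.4% of all 21951 coding genes. At 2 h it was 63.97% of 408 genes against 33.9%, at 10 h 63.43% of 402 against 32.7%, and for IgG 61.69% of 496 against 34.6%. The IgG value was as high as those of NONO, and the part of gene length in these shares was not tested. The distal peak lay downstream of its nearest gene in 42.41% (fasted), 42.58% (2 h), 42.58% (10 h) and 41.71% (IgG) of cases, and upstream in the rest. The median distance to the nearest coding gene was 30.7 to 34.2 kb, and the farthest peak lay 1454 kb away. Distances over 100 kb were found for 17.75%, 12.36%, 20.6% and 16.1% of distal peaks, the lowest share at 2 h and the highest at 10 h. At the rule's own limit, peaks just inside it (10 to 11 kb) numbered 34, 44, 44 and 45 with median tags of 12.4, 13.95, 17.25 and 13.7, and intergenic peaks just outside (9 to 10 kb) numbered 31, 62, 49 and 42 with 14.3, 13.5, 12.6 and 12.9.

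Intergenic is a statement about the annotation. RefSeq genes overlapped 29.59% (fasted), 30.63% (2 h), 29.95% (10 h) and 27.32% (IgG) of distal peaks. They were 262 genes, of which 189 were long non-coding, 45 protein-coding, 16 pseudogenes, 5 tRNA genes, 1 a small nucleolar RNA gene and 1 the microRNA gene. Of the 262, 201 carried predicted-gene names, 36 had a distal peak at all 3 NONO times and 118 had none in the IgG list. The locus with the most distal peaks, 62 peaks over 75.2 kb, lay inside RefSeq's Arhgap32. The median tags of distal peaks with and without a RefSeq gene were close, at 14.05 and 13.8 (fasted), 13.3 and 12.8 (2 h), 16.15 and 15.9 (10 h), and 13.7 and 13.7 (IgG).

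When the distal peaks of all 4 lists were joined within 10 kb they formed 945 loci, of which 729 held a NONO peak and 216 only IgG peaks. Of the 729, 144 (19.8%) had a distal peak at all 3 NONO times, 213 at 2 times and 372 at 1 time. Tags were concentrated, with 25% of all distal NONO tags in the first 10 loci and 53.4% in the first 50. In the 144 loci the summed tags had medians of 30.4 (fasted), 43.15 (2 h) and 39.9 (10 h). The highest of the 3 values was the fasted one in 30 loci, the 2 h one in 59 and the 10 h one in 55, and the fasted value was the lowest in 69. In the 108 loci with all 4 lists, the IgG value was above all 3 NONO values in 26 and below all 3 in 32. Per tag outside the Rn7sk peak these counts became 43 and 19, so which side IgG took depended on that scaling. The loci were named by rank, with the 8 of most NONO tags, the 8 of most peaks, up to 8 with all 3 NONO times and no IgG peak, and the 3 strongest per time without a peak at the other 2 times.

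The locus with the most NONO tags lay between Slc45a1, a sugar transporter gene, and Errfi1, which encodes an inhibitor of EGF receptor signalling (chr4:150684157-150687770, 32.0 kb from Slc45a1). Its single peak per list held 615.7 (fasted), 1790.3 (2 h), 372.1 (10 h) and 199 (IgG) normalised tags. The 2 h value was the highest of any distal NONO peak and IgG was the lowest of the 4 lists. The widths were 1289, 3506, 3032 and 2273 bp, and the folds over input 2.68, 3.00, 3.15 and 2.30. No gene of any biotype lay within 5 kb. The nearest was the long non-coding Gm16079, 5.37 kb away. A second locus 52.8 kb upstream of Errfi1, the one that holds the microRNA (chr4:150779385-150801137), had 3, 4, 3 and 5 peaks with 61.4, 938.3, 421.9 and 1006.6 normalised tags. There IgG was close to the 2 h value as listed, and per tag outside the Rn7sk peak it was 1610 tags, above all 3 NONO values.

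The locus of second rank, upstream of Amn1 at chr6:149215196-149225566, was an IgG locus as much as a NONO one. It held 6.18 (fasted), 1670.8 (2 h), 696 (10 h) and 3076.4 (IgG) normalised tags in distal peaks. Peaks of other classes that reach into the same span held a further 53.7 tags in the fasted and 186.8 tags in the 2 h list, which made the fasted sum 59.88. Nearly all of the distal tags came from 1 peak 750 bp wide in 3 lists, with 1623.9 (2 h), 646.2 (10 h) and 3040.1 (IgG) tags, folds over input of 2.14, 2.32 and 2.16, and listed input values of 1527, 508.1 and 2668.1 tags. The fasted list had no peak under it. Another locus with far more IgG than NONO tags lay at chr10:47640596-47641879, 1450 kb from the coding gene Grik2, a glutamate receptor gene. The nearest gene of any biotype, Gm47571, lay 0.062 kb away. That locus held 241.9 tags at 10 h and 2168.9 tags in IgG and had no fasted or 2 h peak.

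Upstream of Alb, the gene of serum albumin, 23 distal peaks covered chr5:90413405-90451331, ending 9.57 kb from the gene. The locus held 330.41 (fasted), 495.91 (2 h), 361.7 (10 h) and 378.6 (IgG) normalised tags. As listed, these were the closest 4 values among the loci of most tags described here. Per tag outside the Rn7sk peak the IgG value was 605.6 tags, above all 3 NONO values. In each NONO list 1 peak at the Alb end held most of the locus' tags, with 307.6, 404.4 and 277.4 tags over 4130, 3974 and 4322 bp. Under the widest of these, the 10 h peak, the IgG list had 3 separate peaks with 158 tags in all as listed. The highest IgG peak of the locus, 87.9 tags, lay at its other end. The IgG list also had 200.6 tags in 4 peaks over Gm35999, a RefSeq long non-coding gene of the locus, where the NONO lists had 22.81, 73.01 and 54.7.

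The locus of most distal peaks lay between Barx2, a homeobox gene, and Arhgap32, the gene of a GTPase-activating protein (chr9:32031127-32106318). It had 15 (fasted), 18 (2 h), 14 (10 h) and 15 (IgG) peaks with 417.48, 1012.7, 269.19 and 311.16 normalised tags. Per tag outside the Rn7sk peak the IgG value was 497.7 tags, above the fasted and 10 h values. The number of peaks ran from 14 to 18, while the 2 h list had the most tags and the widest cover, 31722 bp against 12336 to 17370 bp. Between Tm4sf1 and Tm4sf4, genes of membrane proteins with 4 spans (chr3:57333406-57386869), 4, 7, 9 and 12 peaks held 73.1, 153.1, 699.9 and 423.34 tags. There the 10 h value was the highest, but per tag outside the Rn7sk peak the IgG value was 677.1 tags, close to it. RefSeq's Tm4sf1 covers that locus.

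2 h and 10 h peaks without any fasted peak marked a locus 48.9 kb upstream of Rxra, the gene of the nuclear receptor partner RXR alpha (chr2:27624497-27627575). It held 845.4 tags at 2 h, 623.8 tags at 10 h and 426.5 tags in IgG as listed. Per tag outside the Rn7sk peak the IgG value was 682.2 tags, above the 10 h value and below the 2 h value. All 3 lists were near the 2-fold limit there, at 2.10-fold, 2.57-fold and at most 2.31-fold over input. Around Ppp1r3b, which encodes a subunit that brings a phosphatase to glycogen, distal peaks held 430.1 tags at 2 h in 5 peaks, 1003.7 tags at 10 h in 7 peaks and 1857.8 tags in IgG in 4 peaks, and the fasted list had none. A strong 10 h peak of 396.2 tags 169 kb from Ppp1r3b was met by an IgG peak of 1810.4 tags.

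**Figure D4:**
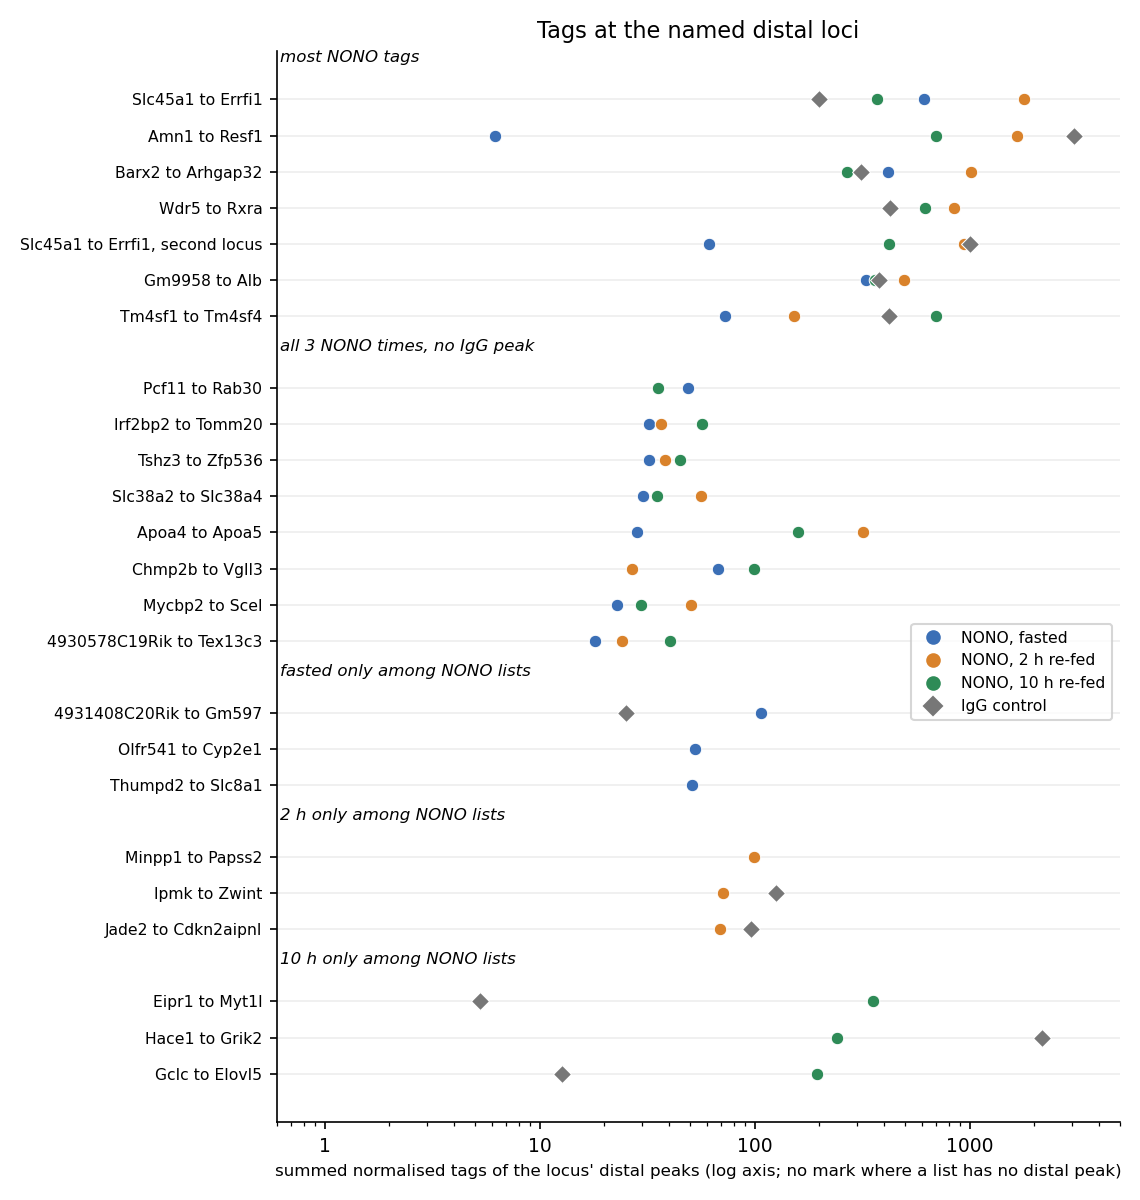
Summed normalised tags (log axis) of the distal peaks at the loci described, 1 row per locus with the coding genes on either side, for the 3 NONO lists (circles) and the IgG list (diamonds); no mark means no distal peak, and the equal 2 h and 10 h marks between Pcf11 and Rab30 lie on each other. The loci of most tags carry IgG marks too, from 199 tags up to 3076.4 tags, while the loci without an IgG peak stay below 100 tags in every list except between Apoa4 and Apoa5.

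34 loci had a distal peak at all 3 NONO times and no IgG peak of any class. Their median of summed NONO tags was 80.77. Over all 729 loci with a NONO peak it was 25.14, but 372 of these had a distal peak at 1 time only. Sums over the 3 times are therefore not comparable between these sets. The 108 loci with a distal peak at all 3 NONO times and in the IgG list had a median of 170.6. At all 3 times, the loci without IgG thus held fewer NONO tags than those with it. Among the 8 loci without IgG ranked by their lowest time only 1 passed 100 normalised tags in any list. That locus lay between Apoa4 and Apoa5, apolipoprotein genes expressed in liver, with Apoa5 a regulator of plasma triglyceride (chr9:46256167-46259205). It held 28.5 tags in 500 bp (fasted), 318.6 tags in 3038 bp (2 h) and 158.7 tags in 2192 bp (10 h), at 2.26-fold, 2.41-fold and 2.55-fold over input. In lists of equal length its 10 h peak did not remain. The fasted value was the lowest, and an IgG peak of 70.0 tags lay outside the locus but within 10 kb of it.

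The first of the 8 lay between Pcf11, whose protein acts in cleavage and polyadenylation of transcripts, and Rab30, a small GTPase gene (chr7:92726058-92728481). It held 49, 35.6 and 35.6 tags in order of time. Within 10 kb of it other peaks held 678.5 tags at 2 h, 829.5 tags at 10 h and 461.7 tags in IgG, so its freedom from IgG held for the locus and not for its surroundings. The locus between Slc38a2 and Slc38a4, genes of neutral amino acid transporters, held 30.4, 56.4 and 35.0 tags (chr15:96710080-96711611). Between Irf2bp2 and Tomm20 it was 32.3, 36.5 and 56.9 tags (chr8:126734235-126737905), and between Tshz3 and Zfp536, both zinc finger genes, 32.28, 38.4 and 44.9 tags (chr7:37203721-37215769). The 3 times differed by less than 2-fold in each of these. Neither of the last 2 had a peak of any other class within 10 kb in any list. In lists of equal length the 2 h peak between Irf2bp2 and Tomm20 did not remain.

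A small nucleolar RNA gene of RefSeq, LOC115488701 (144 bases at chr16:65665254-65665397), lay under a distal peak at all 3 NONO times and under no IgG peak. The peaks held 67.5 (fasted), 27.0 (2 h) and 99.0 (10 h) tags and were 958, 632 and 1284 bp wide. The 2 h value was the lowest there, the opposite of the Apoa4 locus. Small nucleolar RNAs guide chemical modification of other RNAs in the nucleolus. The remaining 2 loci, between Mycbp2 and Scel (chr14:103359508-103374504) and between 4930578C19Rik and Tex13c3 (chrX:19186500-19221402), held 22.86 to 50.7 and 18.07 to 40.49 tags per time. In lists of equal length no 2 h peak remained at the Tex13c3 locus.

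Loci with a NONO peak at 1 time only, counting peaks of every class, numbered 84 (fasted), 122 (2 h) and 151 (10 h), of which 67, 77 and 103 had no IgG peak. Their median tags were 9.98, 9.01 and 13.1, each below the median of all distal peaks of the list. The strongest 10 h locus stood out by its length. Between Eipr1, a gene of endosomal transport, and Myt1l, which encodes a zinc finger transcription factor known from neurons, 14 peaks of the 10 h list covered chr12:29060560-29115375 with 354.1 tags in all. Each held 10.9 to 50.9 tags at 2.02-fold to 5.85-fold over input, so no single peak made the sum. The nearest gene of any biotype, the long non-coding 4833405L11Rik, lay 0.0 kb from the locus, although none of these peaks overlapped its body. Neither the fasted nor the 2 h list had a peak of any class in the locus or within 10 kb, and the IgG list had 1 peak of 5.26 tags. In the 10 h list cut to equal length 13 of the 14 peaks remained, with 339.3 tags, and 1 of the 14 was at least 4-fold over input.

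Another 10 h locus lay between Gclc, the gene of the rate-limiting enzyme of glutathione synthesis, and Elovl5, a fatty acid elongase gene (chr9:77810203-77834743). Its 6 peaks held 194.2 tags, no fasted or 2 h peak lay in it, and 2 IgG peaks held 12.64 tags. It lies in RefSeq's long non-coding Gm34654, where the fasted list had 1 peak of 8.56 tags outside the locus. The GENCODE gene body of Gm34654 lay 0.41 kb from the locus. Peaks of other classes within 10 kb held a further 135.8 tags in 4 peaks at 10 h and 6.84 tags in 1 IgG peak. For the fasted list, 3 peaks with 52.78 tags lay between Olfr541 and Cyp2e1, a cytochrome P450 gene of hepatocytes (chr7:140727721-140748084), and 4 peaks with 50.87 tags between Thumpd2 and Slc8a1, a sodium and calcium exchanger gene (chr17:81307092-81323060). Neither had a peak of the other lists in it, although a 10 h peak of 38.9 tags and 2 IgG peaks lay within 10 kb of the first. The strongest fasted one, 107.5 tags at chr1:27504090-27505827, was met by IgG with 25.3 tags.

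At 2 h the strongest such locus was 1 peak of 99.1 tags and 1021 bp, 11 kb from Minpp1, an inositol polyphosphate phosphatase gene, on the side of Papss2, a gene of sulfate activation (chr19:32526321-32527342). No list had another peak in it or within 10 kb. The other two at 2 h, at chr10:72297070-72297572 and chr11:51876030-51877170, held 71.6 and 68.7 tags and were higher in IgG, at 125.3 and 95.8 tags.

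One long locus held mostly IgG peaks. Between Pmp22, a myelin protein gene, and Hs3st3b1 (chr11:63657330-63784488), 34 IgG peaks held 828.65 tags over 127 kb, while the fasted, 2 h and 10 h lists had 1, 4 and 6 peaks with 8.08, 31.26 and 63.46 tags. The IgG peaks had 5.79 to 77.9 tags each. The 11 NONO peaks were all at least 4-fold over input, but over only 1.0 to 4.6 input tags, and an IgG peak met each of them. They held 6.16 to 12.6 tags each, and in lists of equal length no 2 h or 10 h peak remained there. The nearest gene of any biotype was 32.5 kb away.

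**Figure D5:**
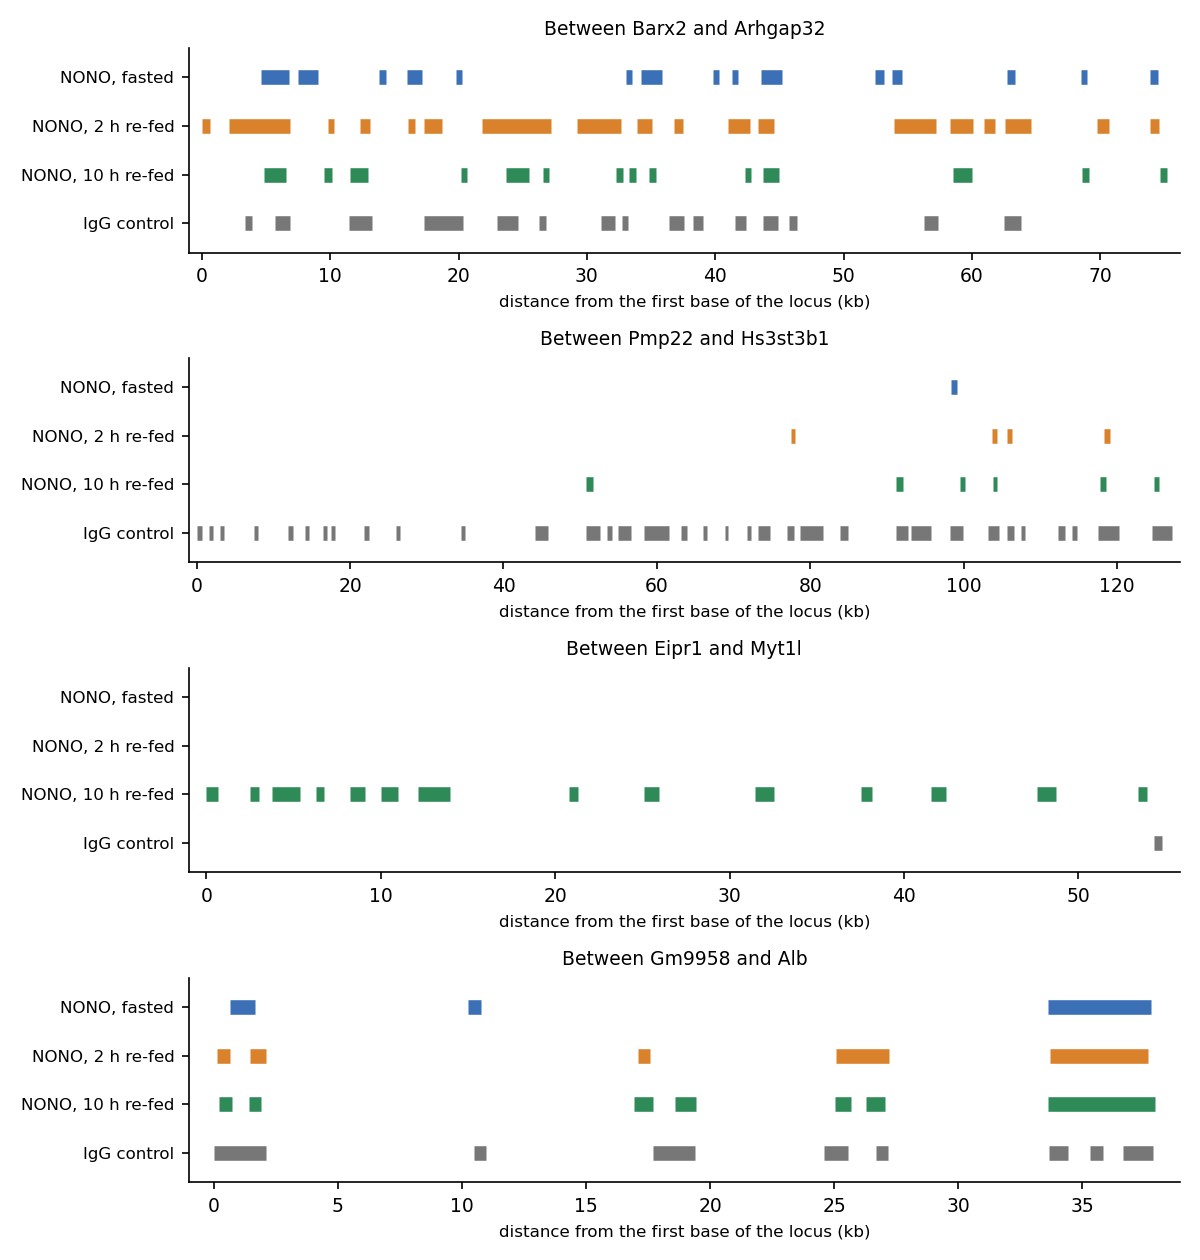
Distal peaks of the 4 lists (rows) along 4 loci, with the distance from the first base of the locus in kb on the horizontal axis and each bar drawn to scale from peak start to peak end. The Arhgap32 locus has 14 to 18 peaks in every list, the Hs3st3b1 locus 34 IgG peaks, the Myt1l locus 14 peaks of the 10 h list and 1 IgG peak, and the Alb locus 1 wide peak at its right end in each NONO list.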

How the data were processed

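Per the submitters' processing notes, FastQC 0.11.2, STAR 2.4.0k, HOMER and mm10 were used on libraries of nuclear RNA made with a stranded total RNA kit after ribosomal RNA removal. HOMER peak calling by the authors used 500 bp windows stitched within 1000 bp, with each immunoprecipitate set against its own input, per the file headers. The deposited signal is tags per peak, which the authors scaled to 10000000 tags per library. The deposited fold over input is a ratio the authors computed from scaled tags, the clonal fold a second ratio, and the deposited score is HOMER's own, per the file headers. Score and fold were used only inside a list, for ranks, filters and description.

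Each group had 1 library, so no test was made. Peaks were laid on 55450 GENCODE M21 genes, 21951 of them coding, and joined where 10 kb or less apart. An overlap is 1 bp. Intervals are exact Clopper-Pearson for shares and exact order-statistic for medians, at 95%. The members, lists and loci were chosen with earlier results of these data known. Named loci follow ranks: per list the 5 peaks of most tags and 3 of highest fold, the 8 loci of most NONO tags, the 8 of most peaks, up to 8 at all 3 times without IgG, and 3 per time without a peak at the other 2 times. Some loci that these ranks name are not reported here. RefSeq genes with a position numbered 49980. GC content, motifs and repeats under the peaks themselves, planned at first, need a genome sequence and were not analysed here. Planted peaks and groups were recovered on simulated data. The work used Python 3.11.15, numpy 2.4.6, pandas 2.3.3, scipy 1.17.1 and matplotlib 3.10.9.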

Additional observations from a re-analysis of the deposited data

How the results depend on the processing

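No paired analysis was possible because no condition has more than 1 library. All values run in the order fasted, 2 h, 10 h, IgG unless a list is named. With the rule's distance at 5 kb the numbers of distal peaks were 766 (fasted) and 1115 (2 h), at 20 kb 330 (fasted) and 479 (2 h), and at 10 kb from genes of every biotype 298, 418, 420 and 490. At 4-fold or more over input they were 166, 296, 201 and 352, and in lists of equal length the 2 h number was 379. Median tags at 4-fold or more were 8.56, 7.59, 9.85 and 6.84, and in lists of equal length 23.2 (2 h), 21.05 (10 h) and 17.9 (IgG). Median width at 4-fold or more was 500 bp in the 2 h, 10 h and IgG lists, and in lists of equal length 753, 669 and 644 bp. The share of peaks with a neighbour was 16.27%, 30.74%, 14.43% and 32.39% at 4-fold or more, and 48.02% (2 h), 47.2% (10 h) and 42.9% (IgG) in lists of equal length. It was 47.61% (2 h) at 10 kb from genes of every biotype. With a gap of 5 kb it was 40.04%, 44.64%, 41.21% and 40%, and with 50 kb 63.91%, 68.13%, 67.03% and 57.56%. Without peaks over a RefSeq gene, a choice made after seeing the data, it was 44.54%, 46.73%, 46.47% and 41.95%. With 50% of the peak covered, IgG met 18.54%, 21.84% and 22.25% of NONO distal peaks and another NONO time 38.86%, 33.24% and 35.44%. With 4-fold in both lists IgG met 4.217%, 7.432% and 6.468%. The cause of the changed order of the lists at 4-fold was not tested. At 4-fold the lists also hold fewer peaks. The median distal peak rests on 29.03, 27.52, 29.06 and 26.02 tags before scaling, and the part of depth in the weak peaks was not tested.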
